A study of Arabidopsis thaliana with 15 samples.

Results

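Seedlings of the Arabidopsis thaliana double mutant obe1-2 were compared with those of the multiple mutant wrky-qm_15_hz across all genes. The members of the comparison were the 23728 genes, of 32548 in the deposited table, whose mean was at least 1 normalised read in at least 1 of the 2 groups. Each group held 3 libraries, 6 of the 15 in the series. Per the labels, obe1-2 is homozygous for mutations in OBE1 and OBE2 (obe1-/- obe2-/-), and wrky-qm_15_hz is homozygous for mutations in WRKY7, WRKY11, WRKY17, WRKY21 and WRKY39 and heterozygous for a mutation in WRKY15 (wrky15+/-). The other 9 libraries came from wild type, as the sets Col-0_1 and Col-0_2, and from wrky-qm, which has the same 5 homozygous mutations and no WRKY15 mutation. All 5 groups were whole seedlings of the Col-0 ecotype, 11 days old, grown without treatment on Murashige and Skoog plates at 22 °C with 16 h of light and 8 h of dark. Nothing in the labels says whether the 3 libraries of a group came from separate plants or growths, so p-values speak only to how far these libraries vary, and that variation may be technical. The labels do not name the mutant alleles or the number of seedlings per library, nor whether the plants labelled wrky15+/- were genotyped one by one.

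OBE1 and OBE2 encode OBERON proteins, nuclear proteins with a PHD finger, a domain that can bind histone tails, and they are known to be needed in the embryo for the shoot and root meristems. The mutated WRKY genes encode group IId WRKY transcription factors, which bind W-box DNA elements, and some of them are known as negative regulators of basal defence. The series title places both kinds of protein in 1 complex that represses stress-responsive genes, so the comparison asks where the transcriptomes of the mutants differ from each other.

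The differences were broad, and the large ones were mostly on 1 side. Values are normalised reads, and a difference is obe1-2 minus wrky-qm_15_hz on the scale of log2(normalised reads + 1), so a positive one means higher in obe1-2. A gene was called where limma, fitted to all 15 libraries, gave a Benjamini-Hochberg adjusted p under 0.05 over the 23728 genes. Of these, 11699 were called (49.3%), 5113 higher in obe1-2 (21.5%) and 6586 higher in wrky-qm_15_hz (27.8%). The shares of 21.5% and 27.8% are the background for each count of called list members below. Among called genes that differed at least 2-fold, 558 were higher in obe1-2 (2.35%) and 2762 were higher in wrky-qm_15_hz (11.6%). Under quantile normalisation the 2-fold counts were 1465 and 1843, and 51.5% of all calls were higher in obe1-2 against 43.7% without it. The size of the 2-fold imbalance and the side with more calls thus depended on the scaling. At least 8-fold, 35 genes were higher in obe1-2 and 524 in wrky-qm_15_hz. The 3 libraries of one group did not overlap the 3 of the other in 56.9% of the genes. With the 6 libraries of the 2 groups alone, 10995 genes were called, and 10558 were called in both fits. Among the 2989 genes with a higher-group mean under 10 normalised reads the 15-library fit called 481 and the 6-library fit 285, so low genes are named below with the adjusted p of both fits where these disagree.

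**Figure D1:**
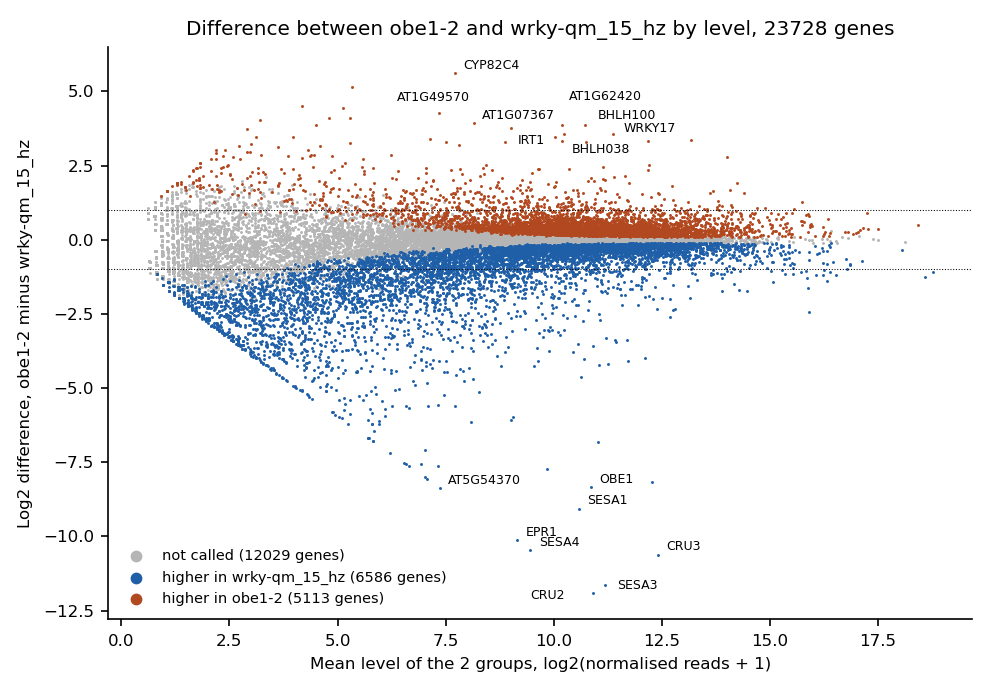
Difference between the 2 mutants for each of the 23728 genes (vertical axis, log2, obe1-2 minus wrky-qm_15_hz) against the mean level of both groups (horizontal axis, log2 of normalised reads + 1), with called genes in colour, dotted lines at 2-fold and the genes with the largest differences named. Differences of more than 8-fold lie mostly below 0, on the side of wrky-qm_15_hz, with 524 genes there against 35 above.

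Library totals of the 6 libraries lay between 48769529 and 49934976 normalised reads, and the median coefficient of variation in genes of mean 1000 or more was 3.87% in obe1-2 and 4.76% in wrky-qm_15_hz. Correlations of log2 values across genes were 0.983 to 0.985 within the groups and 0.957 to 0.959 between them. The leaf markers CAB1 and RBCS1A, a light-harvesting protein and the small subunit of Rubisco, were present in both groups. So were the root markers PHT1;1, a phosphate transporter, and CASP1, an endodermal protein. Another root marker, the root hair gene COBL9, averaged 3.6 normalised reads in obe1-2 and 54.5 in wrky-qm_15_hz. Its wild-type means were 341 and 313. PLT2, a marker of the root meristem, was at 0 in all 6 libraries, and PLT1 was at 0 in obe1-2 and between 5.02 and 11.0 normalised reads in wrky-qm_15_hz. In whole seedlings, fewer cells of a type and less RNA per cell cannot be told apart, which holds for every tissue marker below.

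The mutated genes were read first. OBE1 (AT3G07780) stood at 16, 6.71 and 10.6 normalised reads in obe1-2 and at 3579.9, 3951 and 3574 in wrky-qm_15_hz, a log2 difference of -8.33 ± 0.16 (SE, adjusted p = 8.57e-20). OBE2 (AT5G48160) was at 1753, 1897 and 1782 in obe1-2 and at 7138, 7186 and 6586 in wrky-qm_15_hz, a log2 difference of -1.94 ± 0.044 (SE, adjusted p = 1.14e-18), so its transcript was lower in the double mutant without being lost. Wild-type means were 2194 and 2546 normalised reads for OBE1 and 3813 and 4279 for OBE2, so both OBERON genes were below wild type in obe1-2 and above it in wrky-qm_15_hz. Of the other OBERON genes, OBE4 was slightly lower in obe1-2, with a log2 difference of -0.201 ± 0.047 (SE, adjusted p = 0.00133). OBE3 was not called, with a 95% interval of -0.12 to 0.073 for its log2 difference, and both mutants had more than the wild type, at 8368 ± 182 normalised reads in obe1-2 and 8503 ± 396 in wrky-qm_15_hz (SD, n = 3) against wild-type means of 3189 and 3949.

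All 6 mutated WRKY genes were lower in wrky-qm_15_hz than in obe1-2. WRKY17 (AT2G24570) had 407, 357 and 469.9 normalised reads in wrky-qm_15_hz and 4825, 4719 and 5093 in obe1-2, a log2 difference of 3.57 ± 0.096 (SE, adjusted p = 1.63e-17). WRKY7 had 1387, 1448 and 1399 in wrky-qm_15_hz and 8158, 7781 and 8289.9 in obe1-2, a log2 difference of 2.52 ± 0.056 (SE, adjusted p = 8.65e-19). The groups did not overlap for any of the 6. For WRKY11, the log2 difference was 1.56 ± 0.063 (SE, adjusted p = 1.31e-14), with 19020.1, 18389 and 19009.5 normalised reads in obe1-2 and 6513, 6735 and 5896 in wrky-qm_15_hz. WRKY21, WRKY39 and WRKY15 differed less, by 0.91, 0.72 and 0.45 on the log2 scale. In wrky-qm_15_hz WRKY7, WRKY11 and WRKY15 were above every wild-type library, at log2 differences from wild type of 0.46, 1.71 and 1.56, while in obe1-2 they were at 2.97, 3.28 and 2.01. A transcript can still be made from a mutated gene, so the WRKY levels do not check the labels.

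The largest differences were looked up among called genes whose groups did not overlap and whose higher group had a mean of at least 100 normalised reads. They held genes of iron uptake on one side and of seed storage on the other. The 8 largest in favour of obe1-2 were CYP82C4, AT1G49570, AT1G07367, AT1G62420, BHLH100, IRT1, WRKY17 and BHLH038. In RefSeq, AT1G49570 is a peroxidase superfamily protein, AT1G62420 a protein of a DUF family and AT1G07367 a non-coding RNA. AT1G62420 was at 2284, 2101 and 2203 normalised reads in obe1-2 and at 119, 158 and 178 in wrky-qm_15_hz, a log2 difference of 3.87 ± 0.29 (SE, adjusted p = 3.52e-10). The 8 largest in favour of wrky-qm_15_hz were CRU2, SESA3, CRU3, SESA4, EPR1, SESA1, AT5G54370 and OBE1. EPR1, a proline-rich extensin, was at 0 in all obe1-2 libraries and at 1081, 1443 and 892 normalised reads in wrky-qm_15_hz (adjusted p = 4.21e-11). AT5G54370, annotated as similar to late embryogenesis proteins, was also at 0 in obe1-2 and at 339, 299 and 347 in wrky-qm_15_hz, below its wild-type means of 1668 and 1168.

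**Figure D2:**
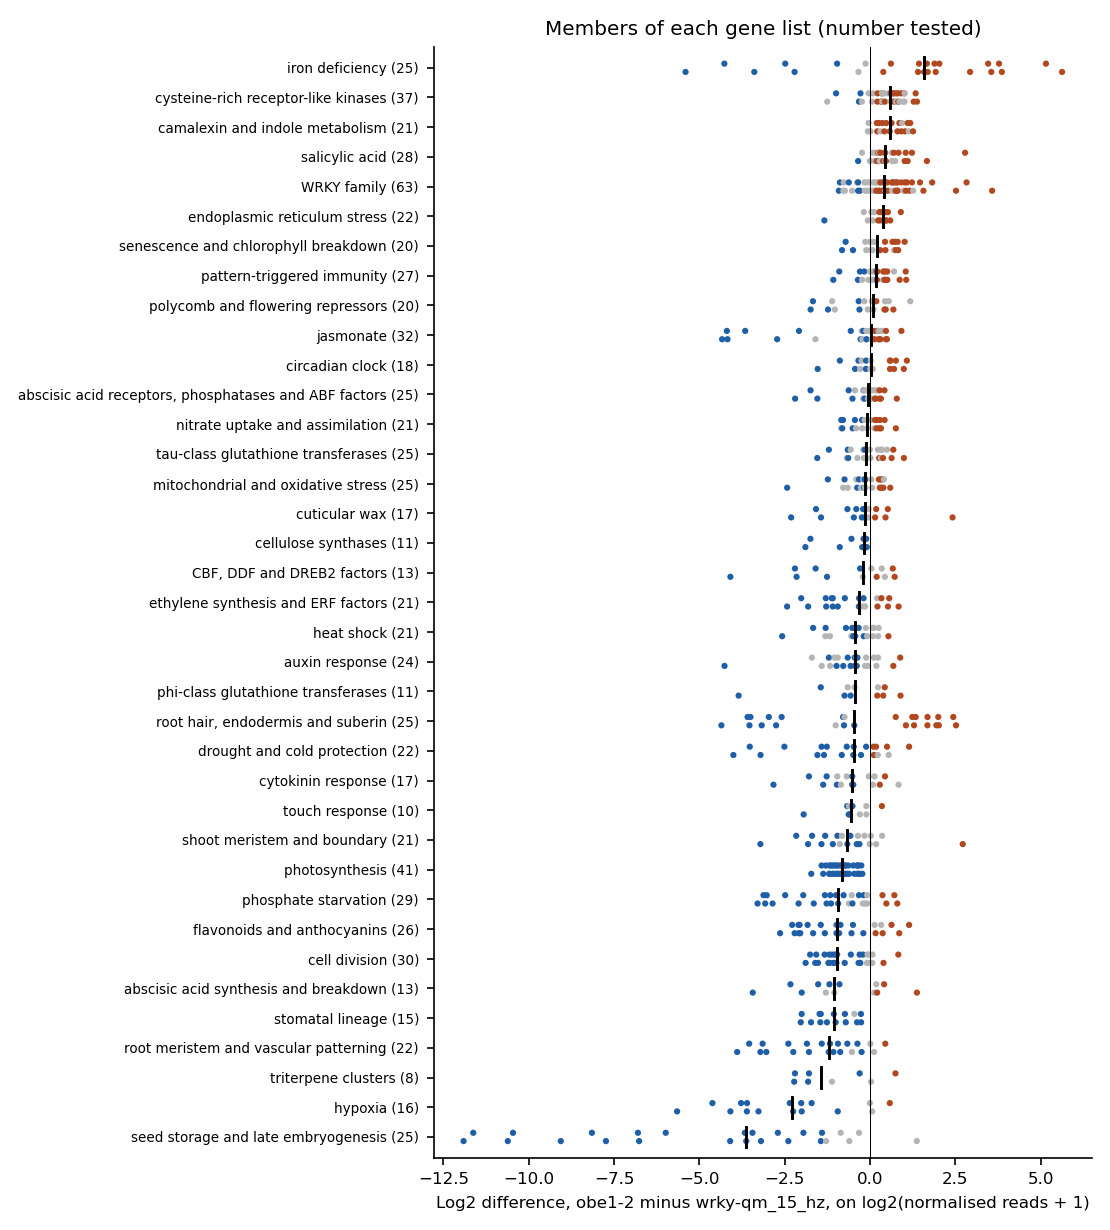
Log2 difference (obe1-2 minus wrky-qm_15_hz) of every tested member of 37 gene lists, in orange where called higher in obe1-2, in blue where called higher in wrky-qm_15_hz and in grey where not called, with a black bar at the list median. Iron deficiency has the highest median, 1.58, with members on both sides, and seed storage has the lowest, -3.63.

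Iron genes divided by function. Plants short of iron are known to raise bHLH factors that switch on ferric reduction and uptake in the root, and to lower ferritins and vacuolar transporters that store iron. Of 25 tested genes of the list, 17 were higher in obe1-2 and 6 were higher in wrky-qm_15_hz, with a median log2 difference of 1.58 against -0.041 for all genes. All 17 that were higher in obe1-2 act in uptake, mobilisation or their regulation, where 2 of 19 members were not called, and all 6 storage genes were higher in wrky-qm_15_hz. BHLH038 and BHLH100, which encode factors that work with FIT to activate uptake, differed by 3.55 ± 0.18 (SE, adjusted p = 5.74e-13) and 3.86 ± 0.13 (SE, adjusted p = 4.73e-16) on the log2 scale. BHLH038 was at 1938, 2475 and 2244 normalised reads in obe1-2, at 159, 209 and 198 in wrky-qm_15_hz and at 65 and 52.8 on average in the wild-type sets. Both mutants were thus above wild type for BHLH038, and obe1-2 was further above it. IRT1, the main ferrous iron transporter of the root, was at 895, 967 and 1034 in obe1-2 and at 52.6, 83.9 and 75.7 in wrky-qm_15_hz, a log2 difference of 3.78 ± 0.13 (SE, adjusted p = 1.08e-15), and wrky-qm_15_hz was below all wild-type libraries where obe1-2 was above them. CYP82C4, an enzyme of iron-mobilising coumarins, showed the same order, with 419, 378 and 437 in obe1-2 and 5.02, 8.83 and 8.87 in wrky-qm_15_hz, a log2 difference of 5.62 ± 0.195 (SE, adjusted p = 1.28e-15). For NAS2, a nicotianamine synthase, the values were 80.8, 81.7 and 71 in obe1-2 and 0.0648, 2.19 and 2.2 in wrky-qm_15_hz, a log2 difference of 5.15 ± 0.35 (SE, adjusted p = 6.9e-11). The ferric reductase FRO2 and the phloem iron transporter OPT3 were also higher in obe1-2, by 2.03 and 1.58 on the log2 scale. FIT itself was not called, with a 95% interval of -0.46 to 0.19.

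On the storage side, FER1, a ferritin of the plastid, was at 538, 428 and 459 normalised reads in obe1-2 and at 4976, 4899 and 5039.6 in wrky-qm_15_hz, a log2 difference of -3.39 ± 0.059 (SE, adjusted p = 1.81e-20). VTL2, a vacuolar iron transporter-like gene, was at 0.0263, 4.23 and 0.0198 in obe1-2 and at 63, 74.4 and 85.5 in wrky-qm_15_hz, a log2 difference of -5.41 ± 0.43 (SE, adjusted p = 1.17e-09). VTL1 was at 0 in all obe1-2 libraries and at 16.9, 13.6 and 26.4 in wrky-qm_15_hz (adjusted p = 1.37e-09). None of the 3 overlapped between the groups, and where libraries are near 0, as for VTL2, the size of a log2 difference depends on the 1 that was added. The median of the 6 storage genes was -5.26 from wild type in obe1-2 and -0.861 in wrky-qm_15_hz, on the log2 scale, and that of the 19 uptake genes was 2.2 in obe1-2 and 0.515 in wrky-qm_15_hz. FSD1, an iron superoxide dismutase of the plastid that is in the list of oxidative stress, was at 19733, 17565 and 20216 in obe1-2 and at 104407, 104195 and 100751 in wrky-qm_15_hz, a log2 difference of -2.43 ± 0.061 (SE, adjusted p = 5.58e-18).

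**Figure D3:**
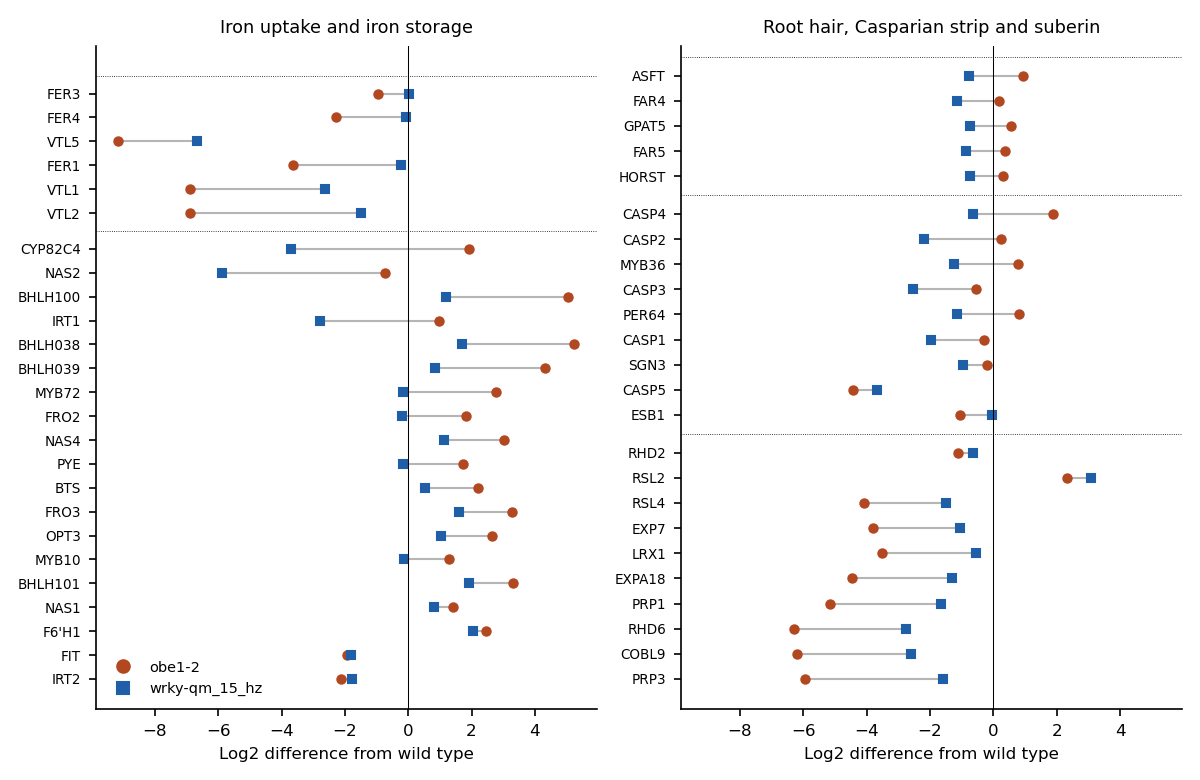
Log2 difference from wild type (horizontal axis, mean of Col-0_1 and Col-0_2) of each gene in obe1-2 (circles) and wrky-qm_15_hz (squares), for iron uptake below and storage above (left), and for root hair, Casparian strip and suberin genes from bottom to top (right). For storage and root hair genes the circles lie to the left of the squares, and for most uptake genes and all 5 suberin genes they lie to the right.

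Genes of cell types of the root differed in opposite directions. Root hairs grow from the epidermis, while Casparian strips and suberin seal the endodermis. Of all genes, 34.1% in obe1-2 and 29.2% in wrky-qm_15_hz were below all 6 wild-type libraries, and 32.9% and 30% were above them. These shares are the background for all such counts from here on. All 10 root hair genes were higher in wrky-qm_15_hz, with a median log2 difference of -3.07, whereas 7 of 9 Casparian strip genes and all 5 suberin genes were higher in obe1-2, with medians of 1.94 and 1.29. PRP3, a cell wall protein of root hairs, was at 21.5, 16.5 and 23.2 normalised reads in obe1-2 and at 441, 482 and 383 in wrky-qm_15_hz, a log2 difference of -4.36 ± 0.13 (SE, adjusted p = 4.73e-17). COBL9, needed for root hair growth, was at 4.29, 4.34 and 2.16 in obe1-2 and at 65.1, 61.9 and 36.4 in wrky-qm_15_hz, a log2 difference of -3.59 ± 0.26 (SE, adjusted p = 2e-10). RHD6, a factor that starts root hair formation, was at 0.0263, 4.23 and 0.0198 in obe1-2 and at 25.9, 11.5 and 24.4 in wrky-qm_15_hz, a log2 difference of -3.53 ± 0.49 (SE, adjusted p = 3.46e-06). The groups did not overlap for these genes, and 9 of the 10 were below all wild-type libraries in both mutants. The exception was RSL2, which was above all of them in both.

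CASP4, a scaffold protein of the Casparian strip, was at 622, 497 and 639 normalised reads in obe1-2 and at 89.3, 93.5 and 123 in wrky-qm_15_hz, a log2 difference of 2.52 ± 0.19 (SE, adjusted p = 6.23e-10). MYB36, the regulator of Casparian strip formation, differed by 2.01 ± 0.14 (SE, adjusted p = 7.25e-11) on the log2 scale and GPAT5, an acyltransferase of suberin synthesis, by 1.29 ± 0.12 (SE, adjusted p = 1.96e-08). Against wild type, the median of the Casparian strip genes was -0.212 in obe1-2 and -1.24 in wrky-qm_15_hz, and that of the suberin genes was 0.365 and -0.753. All 5 suberin genes and 8 of the 9 Casparian strip genes were below every wild-type library in wrky-qm_15_hz, while in obe1-2 none of the 5 and 3 of the 9 were. CASP5 and ESB1 were not called. The split of the root and the iron list by function was made after the values were seen and is a description, as are the splits of other lists below.

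Genes of the root meristem and of vascular patterning were mostly lower in obe1-2. Of 22 tested, 18 were higher in wrky-qm_15_hz, 16 of them in both fits, and 1, SHR, was higher in obe1-2. The median log2 difference was -1.19. PLT1, PLT4 and TMO7 were at 0 in all 3 obe1-2 libraries. PLT1, a master regulator of the root stem cell niche, was at 5.02, 6.71 and 11 normalised reads in wrky-qm_15_hz, against 106 and 101 on average in the wild-type sets (adjusted p = 9.34e-07 between the mutants). TMO5 and TMO6 are targets of the auxin factor MP in vascular precursors. TMO6 was at 19.2, 11 and 12.7 in obe1-2 and at 121, 122 and 153 in wrky-qm_15_hz, a log2 difference of -3.15 ± 0.17 (SE, adjusted p = 1.79e-12). MGP, a target of the SHR factor, was at 0.0132, 2.12 and 0.00995 in obe1-2 and at 26, 25.4 and 13.7 in wrky-qm_15_hz, a log2 difference of -3.89 ± 0.401 (SE, adjusted p = 5.6e-08). MP itself differed by -1.21 on the log2 scale. In both mutants 20 of the 22 were below all 6 wild-type libraries, with medians of -2.26 in obe1-2 and -1.17 in wrky-qm_15_hz, so wrky-qm_15_hz lay between obe1-2 and wild type.

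In the list of shoot meristem and organ boundary genes, 12 of 21 were higher in wrky-qm_15_hz and 1 was higher in obe1-2, a count that was 3 under quantile normalisation and 0 with a minimum mean of 10. AIL5 and ANT, AP2-type factors of dividing organ primordia, differed by -3.21 ± 0.22 (SE, adjusted p = 1.05e-10) and -2.16 ± 0.15 (SE, adjusted p = 1.83e-10) on the log2 scale. ANT was at 48.7, 76.7 and 42.6 normalised reads in obe1-2 and at 250.3, 289 and 207 in wrky-qm_15_hz, below its wild-type levels in both. STM, needed to keep the shoot meristem, was at 15.1, 19.5 and 12.8 in obe1-2 and at 34.7, 47.1 and 18.5 in wrky-qm_15_hz, where the groups overlapped, and its adjusted p was 0.0206 in the 15-library fit and 0.0767 in the 6-library fit. CLV3, the stem cell peptide gene, went the other way at very low levels, with 2.3, 4.47 and 14.6 in obe1-2 and 0 in all wrky-qm_15_hz libraries (adjusted p = 0.0034).

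Cell division genes were lower in obe1-2 for mitosis, while those of DNA replication were near the background of all genes. All 18 genes of mitosis and cytokinesis were higher in wrky-qm_15_hz, with a median log2 difference of -1.15. Of 11 replication genes 4 were higher in wrky-qm_15_hz, 2 were higher in obe1-2 and 5 were not called. Of all genes, 27.8% were higher in wrky-qm_15_hz and 21.5% in obe1-2. The replication median was -0.0765 against -0.041 for all genes, so these counts are no result about replication. KN, the syntaxin KNOLLE of the forming cell plate, was at 115, 119 and 111 normalised reads in obe1-2 and at 337, 359.6 and 362 in wrky-qm_15_hz, a log2 difference of -1.61 ± 0.081 (SE, adjusted p = 6.01e-13). The mitotic cyclin CYCB1;4 was at 70.5, 32.1 and 43.5 in obe1-2 and at 152, 180.5 and 145 in wrky-qm_15_hz, a log2 difference of -1.76 ± 0.19 (SE, adjusted p = 1.16e-07). The plant kinase CDKB1;2 differed by -1.89 ± 0.21 (SE, adjusted p = 2.33e-07). None of these overlapped between the groups. TSO2, a ribonucleotide reductase subunit, was 1 of the 2 replication genes higher in obe1-2, by 0.83 on the log2 scale. The other was CDC6, by 0.39 ± 0.13 (SE, adjusted p = 0.0194), and the count of 2 was 1 without replicate 1 or replicate 3 of either group. Mitosis genes were below every wild-type library in both mutants, 18 of 18, with medians of -2.70 in obe1-2 and -1.51 in wrky-qm_15_hz, and replication genes stood at -0.995 and -0.82.

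Stomatal lineage genes, which govern divisions of the leaf epidermis, showed the same order. Of 15 tested, 14 were higher in wrky-qm_15_hz, 12 of them in both fits, and none in obe1-2, with a median of -1.06. Under quantile normalisation the count was 9 and the median -0.652. ER, a receptor kinase that limits stomatal density and promotes growth, was at 509, 577 and 602 normalised reads in obe1-2 and at 2509.9, 2159.8 and 2117 in wrky-qm_15_hz, a log2 difference of -2.005 ± 0.062 (SE, adjusted p = 1.63e-16). TMM, its partner receptor in stomatal spacing, and SPCH, the factor that starts the lineage, differed by -1.46 ± 0.11 (SE, adjusted p = 8.83e-10) and -1.27 ± 0.15 (SE, adjusted p = 4.69e-07). MUTE was the 1 member that was not called. All 15 were below every wild-type library in obe1-2 and 14 in wrky-qm_15_hz.

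Photosynthesis genes were lower in obe1-2 throughout. All 41 tested were higher in wrky-qm_15_hz, with log2 differences from -1.72 to -0.227 and a median of -0.824. Medians were -1.09 for 15 light-harvesting proteins, -0.741 for 16 photosystem subunits and plastocyanins and -0.363 for 10 genes of carbon fixation. PSAN, a subunit of photosystem I, was at 10687, 10059.6 and 10677 normalised reads in obe1-2 and at 31769.8, 33519 and 38853 in wrky-qm_15_hz, a log2 difference of -1.72 ± 0.072 (SE, adjusted p = 2.23e-14). LHCB2.2, an antenna protein of photosystem II, was at 19083, 17863 and 19298 in obe1-2 and at 51253, 53311 and 46346 in wrky-qm_15_hz, a log2 difference of -1.42 ± 0.055 (SE, adjusted p = 7.26e-15). Both mutants were below wild type, since 40 of the 41 were below all 6 wild-type libraries in obe1-2 and 35 in wrky-qm_15_hz, with medians of -1.48 and -0.663. The 10 highest genes of a library held 4.84% to 4.94% of the reads in obe1-2 and 5.77% to 5.93% in wrky-qm_15_hz. Antenna genes have near-identical copies between which reads can be split.

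The list of senescence and chlorophyll breakdown gave 9 higher in obe1-2 (45%) and 3 higher in wrky-qm_15_hz (15%) among 20, beside 21.5% and 27.8% of all genes. PAO, a ring-opening oxygenase of chlorophyll breakdown, was at 12484, 12386 and 12474 normalised reads in obe1-2 and at 7329, 7391 and 7459 in wrky-qm_15_hz, a log2 difference of 0.75 ± 0.041 (SE, adjusted p = 2.33e-12). NYE1 and NYE2, which start chlorophyll removal from the antenna, differed by 0.73 and 0.82, whereas NYC1, a chlorophyll b reductase, was higher in wrky-qm_15_hz, at a log2 difference of -0.82 ± 0.04 (SE, adjusted p = 3.08e-13).

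Of the genes of salicylic acid defence that passed the test, nearly all were higher in obe1-2. Salicylic acid is the hormone of defence against biotrophic pathogens, made through ICS1 and read by NPR proteins. Of 28 tested, 16 were higher in obe1-2 and 1, WRKY18, was higher in wrky-qm_15_hz, while 11 were not called, and the median was 0.428. PR1, the classical marker gene of the pathway, was at 29657, 27992 and 29046 normalised reads in obe1-2 and at 3906, 4222 and 4502 in wrky-qm_15_hz, a log2 difference of 2.78 ± 0.46 (SE, adjusted p = 3.02e-05). Wild-type means of PR1 were 93.1 and 59.9 and that of wrky-qm was 1.92, so the gene was high in both mutants compared here and highest in obe1-2. Its SE draws on the spread within all 5 groups, the low ones included, and not on these 6 libraries alone. ALD1, an enzyme of pipecolic acid synthesis, was at 64.5, 50.3 and 53 in obe1-2 and at 14.6, 24.1 and 13.6 in wrky-qm_15_hz, a log2 difference of 1.66 ± 0.42 (SE, adjusted p = 0.00243). PR5 and the glucosyltransferase UGT76B1, which inactivates salicylic acid, differed by 1.1 ± 0.12 (SE, adjusted p = 1.3e-07) and 1.04 ± 0.066 (SE, adjusted p = 2.77e-11). ICS1 and CBP60G, at the head of the pathway, were not called, with 95% intervals of -0.074 to 0.23 and -0.15 to 0.14 for the log2 difference. Above all wild-type libraries were 24 of the 28 in obe1-2 and 21 in wrky-qm_15_hz, beside 32.9% and 30% of all genes.

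The genes of indole metabolism that passed the test were all higher in obe1-2. These genes lead from tryptophan to indole glucosinolates and to camalexin, compounds that deter pathogens and herbivores. Of 21 tested, 15 were higher in obe1-2 and none in wrky-qm_15_hz, with a median of 0.574. CYP83B1, a P450 enzyme of indole glucosinolate synthesis, was at 77822, 75680 and 77923 normalised reads in obe1-2 and at 32297, 32117 and 32366 in wrky-qm_15_hz, a log2 difference of 1.26 ± 0.034 (SE, adjusted p = 1.52e-17). CYP79B2, which makes the first indole intermediate, was at 20429, 19910.5 and 20293 in obe1-2 and at 8992, 8796 and 9045 in wrky-qm_15_hz, a log2 difference of 1.18 ± 0.046 (SE, adjusted p = 8.18e-15). All 4 tryptophan synthesis genes were higher in obe1-2, among them TSA1 by 1.1 ± 0.063 (SE, adjusted p = 5.18e-12) and ASA1 by 0.91 ± 0.05 (SE, adjusted p = 2.24e-12). PAD3, the last enzyme of camalexin synthesis, was not called, with a 95% interval of -0.27 to 0.14. Medians against wild type were 2.26 in obe1-2 and 1.77 in wrky-qm_15_hz.

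Pattern-triggered immunity is the response to conserved microbial molecules. Of its 27 genes, 12 were higher in obe1-2 (44.4%) and 5 were higher in wrky-qm_15_hz (18.5%), beside 21.5% and 27.8% of all genes. FRK1, a receptor kinase gene used as a marker of the response, was at 10587, 11121 and 10083 normalised reads in obe1-2 and at 5321, 5179 and 4769 in wrky-qm_15_hz, a log2 difference of 1.06 ± 0.22 (SE, adjusted p = 0.00043), and both mutants were far above the wild-type means of 24.2 and 48.5. PHI1, an EXORDIUM-like gene, went the other way, at 1373, 1147 and 1171 in obe1-2 and 2671, 2516 and 2588 in wrky-qm_15_hz, a log2 difference of -1.08 ± 0.11 (SE, adjusted p = 2.96e-08). PEPR1, a receptor of the PROPEP danger peptides, was higher in wrky-qm_15_hz, at a log2 difference of -0.904 ± 0.059 (SE, adjusted p = 4.36e-11), while the peptide precursor PROPEP3 was higher in obe1-2 by 1.04 ± 0.34 (SE, adjusted p = 0.0135). The call of PROPEP3 was lost without obe1-2 replicate 3 (adjusted p = 0.0531) and without wrky-qm_15_hz replicate 1 (adjusted p = 0.0599). RBOHD, the oxidase of the immune oxidative burst, was not called, with a 95% interval of -0.098 to 0.084. Medians from wild type were 2.33 in obe1-2 and 2.15 in wrky-qm_15_hz.

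PHI1 had the largest difference of the immunity list, and the 250 bases before its start in the RefSeq TAIR10.1 annotation are shown because the W-box is the known binding element of WRKY proteins. They lie at chr1:12851733-12851982 on the plus strand of TAIR10.1, and the capitals mark a W-box, searched as TTGACC or TTGACT on both strands.
PHI1: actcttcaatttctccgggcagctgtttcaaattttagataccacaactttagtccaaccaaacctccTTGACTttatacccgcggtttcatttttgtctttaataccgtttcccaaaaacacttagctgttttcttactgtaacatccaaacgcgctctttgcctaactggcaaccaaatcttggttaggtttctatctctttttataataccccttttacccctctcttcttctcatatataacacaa
The 1 match begins at position -182 from the gene start. W-boxes were found in the same window of 17 of 27 immunity genes (63%) and of 27.8% of 32546 genes, and a match is a description of letters, not of binding.

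Cysteine-rich receptor-like kinases are cell surface kinases of stress and immune signalling. Of 37 tested, 18 were higher in obe1-2, 3 were higher in wrky-qm_15_hz and 16 were not called, with a median of 0.594. CRK36 was at 1240.3, 1319 and 1405 normalised reads in obe1-2 and at 549, 501 and 519.9 in wrky-qm_15_hz, a log2 difference of 1.33 ± 0.26 (SE, adjusted p = 0.000198). CRK4 was at 2503, 2578 and 2160.2 in obe1-2 and at 1148, 942 and 905 in wrky-qm_15_hz, a log2 difference of 1.28 ± 0.198 (SE, adjusted p = 1.49e-05). CRK10 stood at 1400.3, 1208 and 1275 in obe1-2 and at 2574, 2610.2 and 2553 in wrky-qm_15_hz, the opposite order, with a log2 difference of -0.996 ± 0.062 (SE, adjusted p = 2.06e-11). Many of these genes lie in tandem copies, and how reads were divided among copies was not given in the sources used here.

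Of the 63 WRKY genes tested, 33 were higher in obe1-2 and 6 were higher in wrky-qm_15_hz, with a median of 0.412. The 6 mutated genes are among the 33, and of the 57 others 27 were higher in obe1-2. WRKY53 and WRKY54, group III factors of the salicylic acid pathway, differed by 1.01 ± 0.13 (SE, adjusted p = 1.12e-06) and 1.23 ± 0.21 (SE, adjusted p = 4.62e-05) on the log2 scale. WRKY53 was at 1415, 1584 and 1623 normalised reads in obe1-2 and at 791, 739.6 and 757 in wrky-qm_15_hz. WRKY40 and WRKY18, group IIa repressors, were among the 6 in the other direction, at -0.298 and -0.35.

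Folding genes of the endoplasmic reticulum were mostly higher in obe1-2 by small margins, with 16 of 22 called in that direction and 1 in the other, at a median of 0.381. BIP1, the main chaperone of the compartment, was at 25764, 25563 and 25589 normalised reads in obe1-2 and at 19227, 19415 and 18558 in wrky-qm_15_hz, a log2 difference of 0.43 ± 0.038 (SE, adjusted p = 5.32e-09). BZIP60, a transcription factor of the unfolded protein response, differed by 0.52 ± 0.05 (SE, adjusted p = 2.13e-08) and the disulphide isomerase PDI10 by 0.59 ± 0.081 (SE, adjusted p = 3.47e-06). NAC103, a NAC factor of the same response, was higher in wrky-qm_15_hz, at 30.4, 43.3 and 32.9 in obe1-2 and 97.8, 85.7 and 88.2 in wrky-qm_15_hz, a log2 difference of -1.34 ± 0.24 (SE, adjusted p = 8.31e-05). IRE1A and IRE1B, the sensors, were not called.

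**Figure D4:**
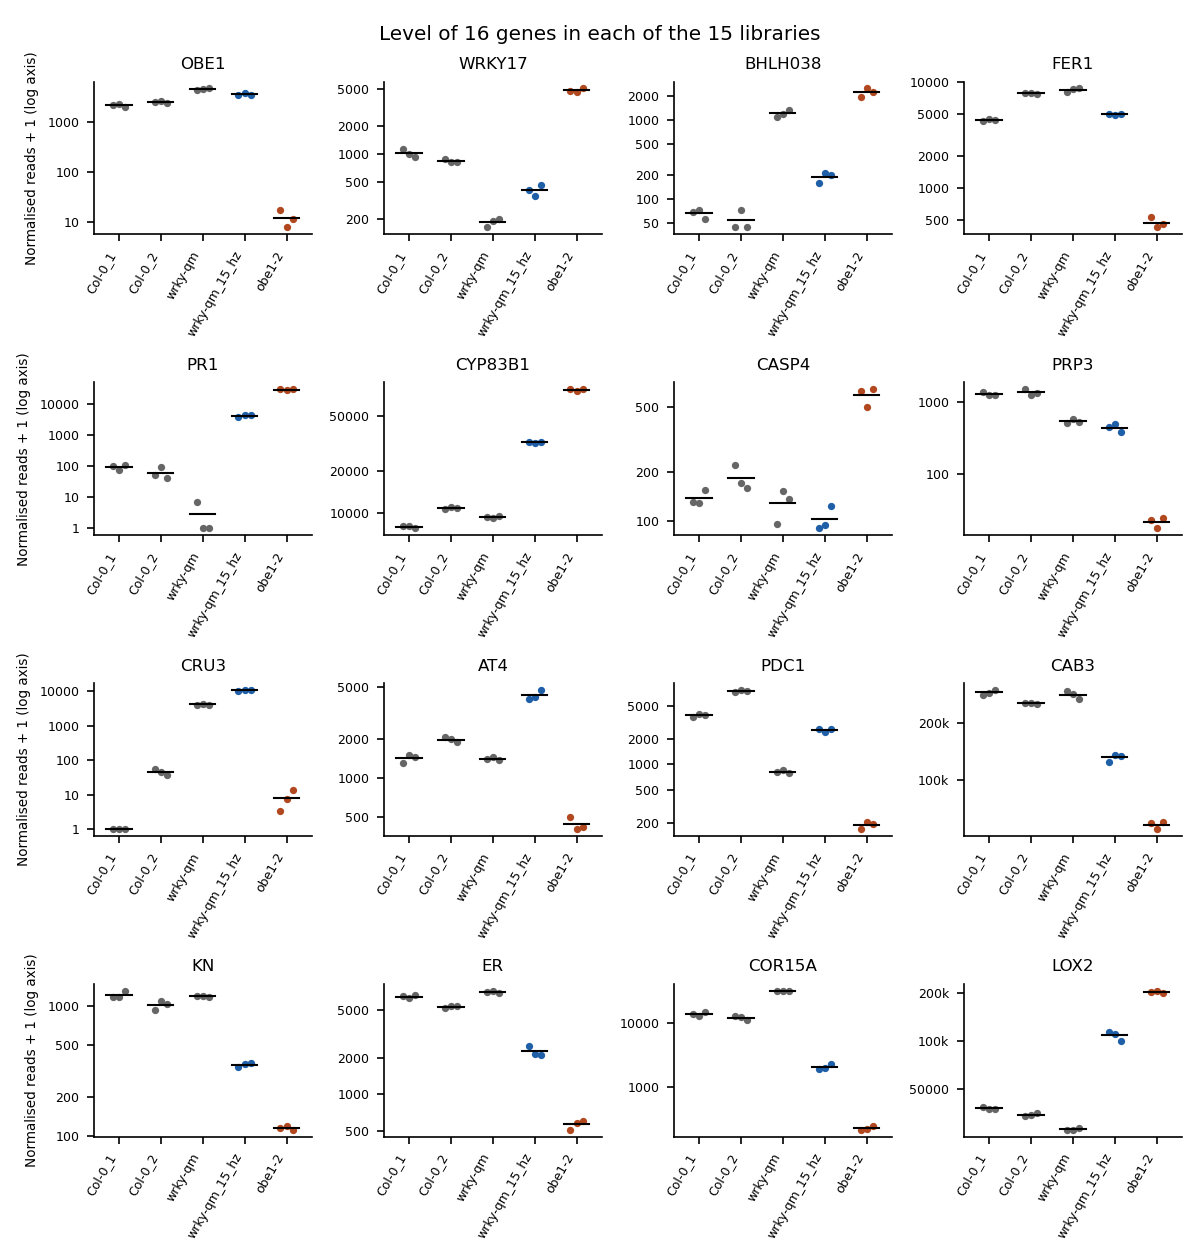
Level of 16 genes (vertical axes, normalised reads + 1, log axis, one scale per panel) in each of the 15 libraries, with a bar at the mean of each group of 3. The points of obe1-2 (orange) and wrky-qm_15_hz (blue) do not overlap in any panel, and in CRU3 and PR1 wrky-qm_15_hz stands far above both wild-type sets while only PR1 does so in obe1-2.

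Seed genes formed the largest difference in the opposite direction. Seed storage proteins and oleosins are made in the embryo and used up after germination. Of 25 tested, 20 were higher in wrky-qm_15_hz, all at least 2-fold, and none in obe1-2, where quantile normalisation called 1. CRU3, a cruciferin, was at 2.3, 6.57 and 12.5 normalised reads in obe1-2 and at 10663, 11073 and 11013 in wrky-qm_15_hz, a log2 difference of -10.61 ± 0.32 (SE, adjusted p = 1.23e-16). CRU2 was at 0 in all obe1-2 libraries and at 3621, 3949 and 3961 in wrky-qm_15_hz (adjusted p = 1.98e-15). OLEO1, a protein of oil bodies, was at 1.31, 12 and 19.9 in obe1-2 and at 1716, 1821 and 1943 in wrky-qm_15_hz, a log2 difference of -7.74 ± 0.58 (SE, adjusted p = 4.27e-10). All 9 cruciferin, albumin and vicilin-like genes and all 4 oleosins were called. Of 5 embryo regulators, ABI3 and FUS3 were called, at -3.67 ± 0.61 (SE, adjusted p = 3.53e-05) and -1.95 ± 0.31 (SE, adjusted p = 1.8e-05), while LEC1, LEC2 and DOG1 were not.

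Summed over the 25 genes, the level was 360.4 to 409 normalised reads in obe1-2 and 41030 to 44280 in wrky-qm_15_hz. It was 294 to 371 in Col-0_1, 804 to 848 in Col-0_2 and 10870 to 11110 in wrky-qm. The wild-type sets thus differed from each other, and wrky-qm also stood above both. Which tissue or seeds the transcripts came from was not tested. The albumin genes SESA1 to SESA4 are near copies, and the split of reads between them is uncertain.

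Phosphate starvation genes were mostly higher in wrky-qm_15_hz. Plants short of phosphate raise transporters, phosphatases and enzymes that replace phospholipids, through PHR1 and SPX proteins. Of 29 tested, 19 were higher in wrky-qm_15_hz and 4 were higher in obe1-2, with a median of -0.935. AT4 and IPS1, RNAs that bind and block a microRNA of the pathway, had the largest differences. AT4 (AT5G03545) was at 493, 403 and 416 normalised reads in obe1-2 and at 3999.5, 4173 and 4727 in wrky-qm_15_hz, a log2 difference of -3.297 ± 0.076 (SE, adjusted p = 1.33e-18), with obe1-2 below all wild-type libraries and wrky-qm_15_hz above them. IPS1 was at 192, 228 and 251 in obe1-2 and at 1743, 1959.6 and 2152 in wrky-qm_15_hz, a log2 difference of -3.12 ± 0.17 (SE, adjusted p = 1.49e-12). All 6 genes of lipid remodelling were higher in wrky-qm_15_hz, among them the galactolipid synthase gene MGD3, at 193, 205 and 209 in obe1-2 and 1581, 1672 and 1728 in wrky-qm_15_hz, a log2 difference of -3.03 ± 0.13 (SE, adjusted p = 6.63e-14). SPX1 and SPX3 differed by -1.65 ± 0.056 (SE, adjusted p = 9.27e-16) and -2.86 ± 0.32 (SE, adjusted p = 1.71e-07). The 4 in the other direction were PHO2, PHR1, PHO1 and WRKY75, at log2 differences between 0.36 and 0.796. Against wild type, 23 of 29 were above all 6 libraries in wrky-qm_15_hz and 16 in obe1-2, beside 30% and 32.9% of all genes. The medians from wild type were 1.49 in wrky-qm_15_hz and 0.483 in obe1-2.

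AT4 was also the member whose promoter was read for P1BS, the known binding element of PHR1, searched as GNATATNC on both strands. The window is chr5:894332-894581, on the plus strand of TAIR10.1, and the capitals mark the match.
AT4: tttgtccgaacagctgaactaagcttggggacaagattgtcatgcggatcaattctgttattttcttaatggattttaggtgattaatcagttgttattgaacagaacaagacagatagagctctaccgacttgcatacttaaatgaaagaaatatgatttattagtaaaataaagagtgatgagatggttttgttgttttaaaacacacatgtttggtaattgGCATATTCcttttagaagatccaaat
The match begins at position -26 from the gene start. P1BS was found in 7 of 29 phosphate genes (24.1%) and in 5.43% of all windows.

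Hypoxia genes were mostly lower in obe1-2. When oxygen is short, group VII ERF factors raise genes of fermentation and sugar breakdown. Of 16 tested, 13 were higher in wrky-qm_15_hz and 1, PDC2, was higher in obe1-2, with a median of -2.30. PDC1, pyruvate decarboxylase, was at 169, 204 and 195 normalised reads in obe1-2 and at 2676, 2447 and 2681 in wrky-qm_15_hz, a log2 difference of -3.78 ± 0.065 (SE, adjusted p = 1.57e-20). ADH1, alcohol dehydrogenase, was at 2293, 2146 and 2348 in obe1-2 and at 11292, 11718 and 11649.9 in wrky-qm_15_hz, a log2 difference of -2.35 ± 0.047 (SE, adjusted p = 1.3e-19). LBD41, a LOB-domain factor of the response, was at 130.3, 124 and 112 in obe1-2 and at 2976, 2981 and 3112 in wrky-qm_15_hz, a log2 difference of -4.62 ± 0.078 (SE, adjusted p = 1.57e-20). PCO1 and PCO2, the oxidases that mark the ERF factors for breakdown, differed by -3.27 ± 0.14 (SE, adjusted p = 2.08e-14) and -3.605 ± 0.22 (SE, adjusted p = 1.06e-11). The groups did not overlap in any of these. The median from wild type was -3.17 in obe1-2 and -0.162 in wrky-qm_15_hz. This reference averages 2 wild-type sets that differed. Summed over the 16 genes, the median library had 39450 normalised reads in Col-0_1 and 64580 in Col-0_2. It had 50560 in wrky-qm_15_hz, between the wild-type sets, and 32390 in obe1-2, below both. In wrky-qm it had 22440, lower than in obe1-2, so a low sum was not particular to obe1-2. In wrky-qm_15_hz 3 of the 16 were above all wild-type libraries and 7 below, beside 30% and 29.2% of all genes. In obe1-2 the numbers were 2 and 12, beside 32.9% and 34.1% of all genes.

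Genes that protect cells from drought and cold were mostly lower in obe1-2, with 14 of 22 higher in wrky-qm_15_hz (63.6%) and 5 higher in obe1-2 (22.7%). The share higher in obe1-2 is near the 21.5% of all genes, while 27.8% of all genes were higher in wrky-qm_15_hz. GOLS2, a galactinol synthase that makes protective sugars, was at 19.2, 9.96 and 11.7 normalised reads in obe1-2 and at 291, 206 and 192 in wrky-qm_15_hz, a log2 difference of -4.005 ± 0.16 (SE, adjusted p = 1.31e-14). COR15A, a cold-regulated protein of the chloroplast, was at 211, 213 and 239 in obe1-2 and at 1923, 1949 and 2298 in wrky-qm_15_hz, a log2 difference of -3.21 ± 0.067 (SE, adjusted p = 2.48e-19). P5CS1, the stress form of the proline synthesis enzyme, differed by -1.27 ± 0.035 (SE, adjusted p = 2.06e-17), while the NAC factor gene RD26 was higher in obe1-2 by 1.14 ± 0.068 (SE, adjusted p = 9.35e-12). Most of the 22 were below every wild-type library in both mutants, 15 in obe1-2 and 14 in wrky-qm_15_hz, beside 34.1% and 29.2% of all genes. The medians from wild type were -2.16 and -1.32. The count of 5 higher in obe1-2 was 3 without obe1-2 replicate 1 and 3 under quantile normalisation.

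GOLS2 had the largest difference of these genes, and its promoter window was searched for the DRE core CCGAC, the binding element of CBF and DREB factors, on both strands. The window is chr1:21207287-21207536, on the plus strand of TAIR10.1, with the match in capitals.
GOLS2: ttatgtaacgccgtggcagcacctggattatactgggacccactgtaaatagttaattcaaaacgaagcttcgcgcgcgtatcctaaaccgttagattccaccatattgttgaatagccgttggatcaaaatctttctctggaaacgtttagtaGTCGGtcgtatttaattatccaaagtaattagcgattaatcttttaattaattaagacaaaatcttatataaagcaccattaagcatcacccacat
The match, on the opposite strand, begins at position -96. The core was found in 10 of 22 genes of the list (45.5%) and in 11.7% of all windows.

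Among the factors upstream of these genes, CBF1 and CBF2 were higher in wrky-qm_15_hz, at log2 differences of -2.15 ± 0.29 (SE, adjusted p = 2.3e-06) and -1.26 ± 0.19 (SE, adjusted p = 1.06e-05), and CBF3 was not called. CBF1 was at 15.2, 29 and 8.67 normalised reads in obe1-2 and at 56.2, 90.5 and 78 in wrky-qm_15_hz. DDF1, a related factor, was at 2.11, 0.0151 and 0.00995 in obe1-2 and at 29.5, 20.2 and 23.5 in wrky-qm_15_hz, a log2 difference of -4.09 ± 0.496 (SE, adjusted p = 5.8e-07). Of 13 tested, 6 were higher in wrky-qm_15_hz (46.2%) and 3 were higher in obe1-2 (23.1%), beside 27.8% and 21.5% of all genes. The list median was -0.212, and 0.0371 with a minimum mean of 10, so its direction was not stable. CBF4, at 0 in obe1-2, was called in the 15-library fit alone (adjusted p = 0.0481 and 0.148 with 6 libraries).

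Abscisic acid is the hormone behind much of this protection. Of 13 genes of its synthesis and breakdown, 6 were higher in wrky-qm_15_hz (46.2%) and 3 were higher in obe1-2 (23.1%). The latter share is near the 21.5% of all genes. BGLU18, a glucosidase that frees abscisic acid from its conjugate, was at 464, 454 and 494 normalised reads in obe1-2 and at 5228, 4886 and 5209 in wrky-qm_15_hz, a log2 difference of -3.44 ± 0.04 (SE, adjusted p = 3.99e-23). NCED3, the rate-limiting enzyme of synthesis under stress, was at 105, 100.3 and 99.5 in obe1-2 and at 291, 287 and 302 in wrky-qm_15_hz, a log2 difference of -1.52 ± 0.069 (SE, adjusted p = 9.85e-14). Of the breakdown enzymes, CYP707A1, CYP707A3 and CYP707A4 were higher in wrky-qm_15_hz and CYP707A2 was higher in obe1-2, by 1.37 ± 0.19 (SE, adjusted p = 2.59e-06). The ABRE core ACGTG, the element of abscisic acid response, was not among the letters of the 250 bases before BGLU18. It was found in 18 of 38 genes of both abscisic acid lists (47.4%) and in 21.8% of all windows. Of 25 receptors, phosphatases and ABF factors, 7 were higher in each mutant (28%), and in both fits 6 in obe1-2 and 5 in wrky-qm_15_hz. Of all genes, 21.5% were higher in obe1-2 and 27.8% in wrky-qm_15_hz. Shares that near the background are no result about the list. The phosphatase gene HAI1 was at 51.8, 67.2 and 43.6 in obe1-2 and at 179.7, 179 and 185 in wrky-qm_15_hz, a log2 difference of -1.74 ± 0.12 (SE, adjusted p = 9.8e-11), and the factor ABF1 was higher in obe1-2 by 0.78 ± 0.056 (SE, adjusted p = 1.71e-10). HAI2, another phosphatase gene, was called in the 15-library fit alone (adjusted p = 0.0443 and 0.205 with 6 libraries).

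Jasmonate genes were split between synthesis and output. Jasmonate is the hormone of the wound response and of defence against chewing insects and necrotrophic fungi. Of 32 tested, 10 were higher in each mutant (31.2%), beside 21.5% of all genes higher in obe1-2 and 27.8% higher in wrky-qm_15_hz. The list as a whole leaned to neither mutant, with a median log2 difference of 0.0186. Of 10 synthesis genes, 7 were higher in obe1-2 and 2 were higher in wrky-qm_15_hz, while 6 of 7 output genes, the defensins, the thionin and the vegetative storage proteins, were higher in wrky-qm_15_hz. LOX2, the lipoxygenase that starts synthesis in the leaf, was at 203646, 207814 and 201523 normalised reads in obe1-2 and at 114248, 110232 and 100635 in wrky-qm_15_hz, a log2 difference of 0.92 ± 0.045 (SE, adjusted p = 3.48e-13). VSP2, a vegetative storage protein, was at 287, 239 and 231 in obe1-2 and at 4426, 4761 and 4689 in wrky-qm_15_hz, a log2 difference of -4.196 ± 0.07 (SE, adjusted p = 1.41e-20). PDF1.2, a plant defensin, was at 19.5, 25 and 26.4 in obe1-2 and at 422, 472 and 601 in wrky-qm_15_hz, a log2 difference of -4.34 ± 0.34 (SE, adjusted p = 6.94e-10). Of the 10 JAZ repressor genes 2 were higher in each mutant and 6 were not called, although 8 were above all wild-type libraries in both. In both fits, 8 of the 32 were higher in obe1-2 and 9 were higher in wrky-qm_15_hz. Without wrky-qm_15_hz replicate 3 the count of 10 higher in obe1-2 was 6. The PDF1.2 genes are near copies.

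In the flavonoid list, 18 of 26 were higher in wrky-qm_15_hz, 15 of them in both fits, and 5 were higher in obe1-2. The median was -0.975, and -0.548 under quantile normalisation. CHS, chalcone synthase, the first enzyme of the branch, was at 384, 378 and 301 normalised reads in obe1-2 and at 2142, 2178 and 2266 in wrky-qm_15_hz, a log2 difference of -2.64 ± 0.069 (SE, adjusted p = 1.2e-17). DFR and LDOX, of anthocyanin synthesis, differed by -2.07 ± 0.12 (SE, adjusted p = 3.92e-12) and -2.09 ± 0.13 (SE, adjusted p = 1.98e-11). PAL1 and PAL2, which feed all phenylpropanoids, were higher in obe1-2, by 1.14 ± 0.036 (SE, adjusted p = 1.86e-16) and 0.85 ± 0.036 (SE, adjusted p = 2.99e-14). The regulators PAP1 and PAP2 were not called. MYB12 was called in the 15-library fit alone (adjusted p = 0.00214 and 0.0518 with 6 libraries).

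Ethylene genes were mostly higher in wrky-qm_15_hz, 13 of 21 (61.9%), with 5 higher in obe1-2 (23.8%), beside 27.8% and 21.5% of all genes. The receptor gene ERS2 was at 108, 106 and 92.2 normalised reads in obe1-2 and at 364, 434 and 296 in wrky-qm_15_hz, a log2 difference of -1.82 ± 0.13 (SE, adjusted p = 1.45e-10). EBF1, an F-box protein that limits the ethylene response, differed by -1.298 ± 0.067 (SE, adjusted p = 8.35e-13), and the synthesis enzyme ACO1 by -2.02 ± 0.1 (SE, adjusted p = 4.31e-13). The count of 5 higher in obe1-2 fell to 3 without obe1-2 replicate 1 or 2 and to 2 without obe1-2 replicate 3, without wrky-qm_15_hz replicate 2 or without the mean-variance trend. The touch genes gave 5 of 10 higher in wrky-qm_15_hz (50%) and 1 higher in obe1-2 (10%). They were led by the calmodulin-like CML38, at 229, 252 and 280.2 in obe1-2 and 854, 1053 and 1038 in wrky-qm_15_hz, a log2 difference of -1.95 ± 0.13 (SE, adjusted p = 6.07e-11). In the heat shock list 10 of 21 were higher in wrky-qm_15_hz (47.6%) and 1, HSFB1, was higher in obe1-2 (4.76%), where quantile and median-ratio scaling each called 2. HSFA2, a heat shock factor, was at 50.7, 41.7 and 58 in obe1-2 and at 144, 159 and 179 in wrky-qm_15_hz, a log2 difference of -1.67 ± 0.28 (SE, adjusted p = 3.88e-05), and the chaperone HSP101 differed by -1.303 ± 0.1 (SE, adjusted p = 6.14e-10).

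Among hormone genes of growth, 10 of 24 auxin response genes were higher in wrky-qm_15_hz and 2 were higher in obe1-2, a count that was 4 under quantile normalisation. IAA29, an Aux/IAA repressor, was at 4.34, 2.29 and 8.37 normalised reads in obe1-2 and at 108, 95.8 and 110.3 in wrky-qm_15_hz, a log2 difference of -4.26 ± 0.296 (SE, adjusted p = 1.14e-10). Of 17 cytokinin genes, 8 were higher in wrky-qm_15_hz and 2 were higher in obe1-2, among the former the response regulator ARR7, at 137, 114 and 154 in obe1-2 and 339.8, 271 and 374 in wrky-qm_15_hz, a log2 difference of -1.27 ± 0.13 (SE, adjusted p = 4.95e-08). All 11 cellulose synthesis genes were higher in wrky-qm_15_hz, 10 of them in both fits, and 7 without wrky-qm_15_hz replicate 1. Those of the secondary wall had the largest differences, CESA7 at -1.896 ± 0.24 (SE, adjusted p = 1.35e-06), CESA8 at -1.75 ± 0.13 (SE, adjusted p = 3.01e-10) and CESA4 at -0.89 ± 0.088 (SE, adjusted p = 2.89e-08), while the primary wall genes CESA1, CESA3 and CESA6 differed by -0.13, -0.14 and -0.18 on the log2 scale.

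Several further lists had calls in both directions, to be read beside the 21.5% of all genes that were higher in obe1-2 and the 27.8% that were higher in wrky-qm_15_hz. Oxidative and mitochondrial stress gave 7 of 25 higher in obe1-2 (28%) and 8 higher in wrky-qm_15_hz (32%), with the catalase gene CAT3 at 241268, 221708 and 235195 normalised reads in obe1-2 and 547300, 537098 and 561903 in wrky-qm_15_hz, a log2 difference of -1.24 ± 0.054 (SE, adjusted p = 5.49e-14). Nitrate genes gave 8 and 6 of 21 (38.1% and 28.6%). Clock genes gave 7 and 6 of 18 (38.9% and 33.3%), with PRR5 higher in obe1-2 by 0.99 ± 0.041 (SE, adjusted p = 2.48e-14) and CHE, a TCP factor of the clock, higher in wrky-qm_15_hz, at a log2 difference of -1.54 ± 0.068 (SE, adjusted p = 6.11e-14). Polycomb and flowering genes gave 4 and 5 of 20 (20% and 25%), the latter 3 under quantile normalisation, and the repressor FLC was not called, at 8.63, 15 and 2.25 in obe1-2 and 3.63, 0.0943 and 7.59 in wrky-qm_15_hz. Wax genes gave 5 and 9 of 17 (29.4% and 52.9%), and 5 and 7 in both fits. Among those higher in wrky-qm_15_hz was CER1, an enzyme of alkane synthesis. It was at 319, 295 and 406 in obe1-2 and 1747, 1669 and 1621 in wrky-qm_15_hz, a log2 difference of -2.31 ± 0.074 (SE, adjusted p = 3.15e-16). Tau-class glutathione transferases gave 5 and 6 of 25 (20% and 24%) and the phi class 4 and 4 of 11 (36.4% each). Shares near those of all genes, as in the oxidative, polycomb and tau-class lists, are no result about the list. In the root triterpene clusters 5 of 8 were higher in wrky-qm_15_hz with 15 libraries and 1 with 6, and the count was 2 with a minimum mean of 10 and 3 under quantile normalisation, with the replicate block or without obe1-2 replicate 3. The 1 that was higher in obe1-2 became 2 under quantile normalisation.

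**Figure D5:**
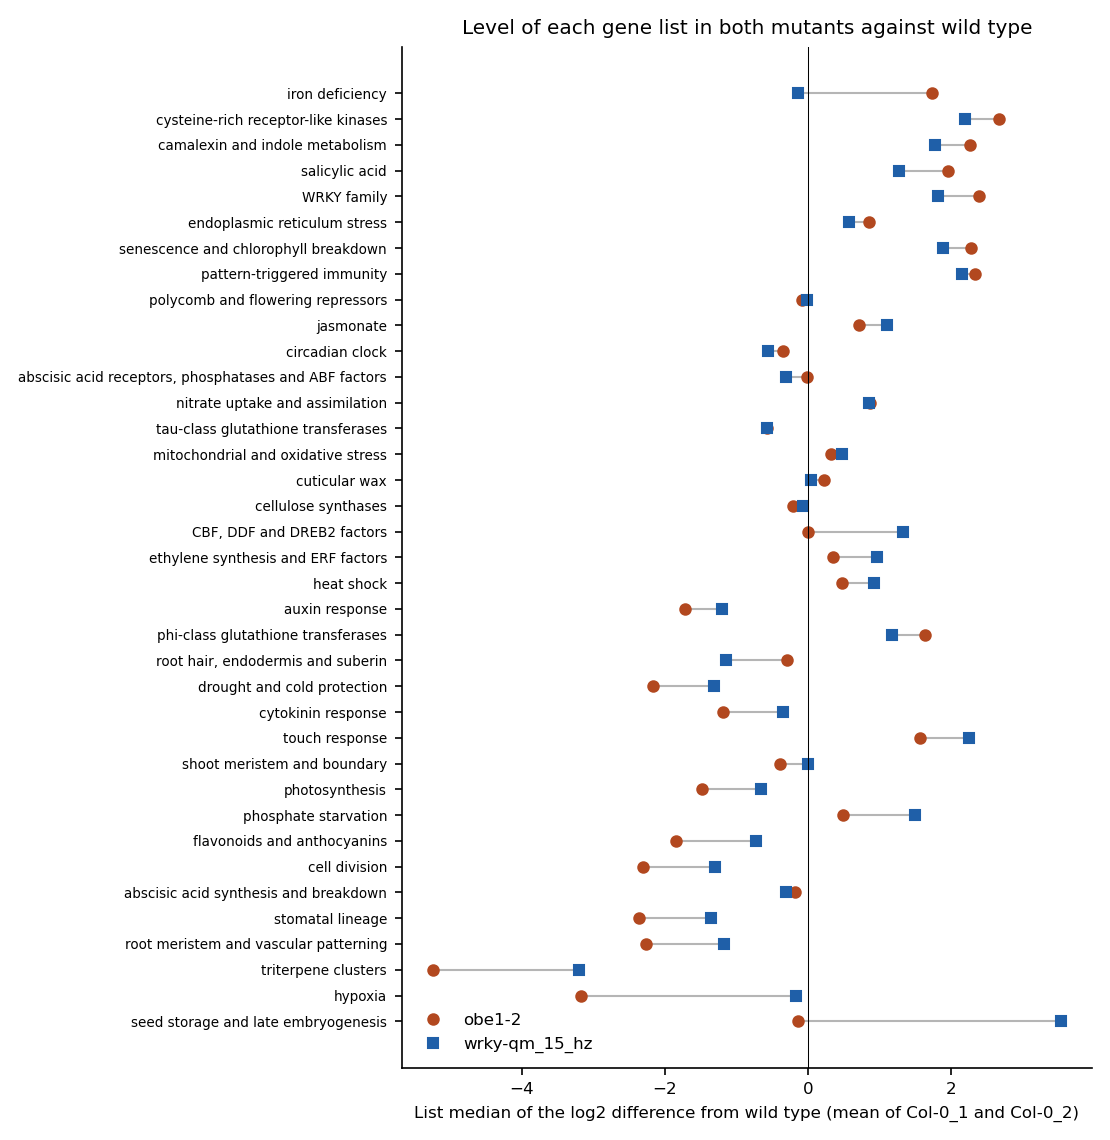
Median log2 difference from wild type (horizontal axis, mean of Col-0_1 and Col-0_2) of the members of 37 gene lists in obe1-2 (circles) and in wrky-qm_15_hz (squares), in the order of the list medians between the mutants. Both mutants lie on the same side of wild type in most lists, with obe1-2 farther out for salicylic acid, photosynthesis and cell division, and the widest gaps are in seed storage (-0.142 and 3.53) and hypoxia (-3.17 and -0.162).

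Set beside wild type, the mutants differed in degree in some lists and in the sign of the median in others. Both comparisons with wild type share the same 6 wild-type libraries, so the values are given next to each other. Median log2 differences from wild type were 2.67 in obe1-2 and 2.2 in wrky-qm_15_hz for the receptor-like kinases, 1.95 and 1.27 for salicylic acid and 2.28 and 1.89 for senescence. Below wild type, they were -2.30 and -1.30 for cell division and -2.36 and -1.36 for the stomatal lineage. Wider gaps were seen in seed storage, at -0.142 in obe1-2 and 3.53 in wrky-qm_15_hz, and in hypoxia. For the whole iron list the medians were 1.73 in obe1-2 and -0.134 in wrky-qm_15_hz. Split by function, the medians of uptake genes and of storage genes lay on the same side of wild type in both mutants and farther from it in obe1-2. In wrky-qm_15_hz 10 of 19 uptake genes were above all wild-type libraries and 5 below, and 3 of 6 storage genes were below. In obe1-2, 16 uptake genes were above and 2 below, and all 6 storage genes were below. The phosphate lipid genes were at -0.524 in obe1-2 and 1.05 in wrky-qm_15_hz, where 4 of 6 were below all wild-type libraries in the former and 5 of 6 above them in the latter. The jasmonate defensins, thionin and storage proteins were at -2.07 and 1.38, but none of the 7 was above all wild-type libraries in either mutant. In wrky-qm_15_hz none was below all of them. In obe1-2, 3 of 7 were, which is near the 34.1% of all genes and no result about these genes.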

How the data were processed

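Total RNA (TRIzol) of whole seedlings was sequenced as 150-bp paired ends on a NovaSeq instrument, per the labels' protocols. The submitters' processing notes name bcl2fastq, HISAT2, edgeR and the TAIR10 build, without versions or order, and strand was not given in the sources used here. The authors deposited 1 table of 32548 genes in 15 libraries. Its unit is not stated. The deposited signal is called normalised reads here, because the columns sum to similar totals, between 44049333 and 49934976, and are not whole numbers, so the original depth is unknown and no counting interval is given.

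Values were put on the scale of log2(value + 1), which understates changes of low genes, and values under 1e-06 were taken as 0. A gene was tested where either mutant's mean reached 1, with limma 3.58.1 (R 4.3.3, empirical Bayes with a mean-variance trend) on all 15 libraries in 5 groups, with Benjamini-Hochberg adjustment, and every adjusted p in the text comes from limma. On simulated data the 15-library fit called too many genes that were low in both groups and the 6-library fit did not. With 200 genes changed 2-fold, 13.8% of the calls were false with 15 libraries and 0.798% with 6. The 6-library fit is therefore given beside the total and the low genes named. Counts of list members are those of the 15-library fit. Some are smaller when both fits must call the gene, and the larger falls are given beside the lists. Above or below wild type means that all 3 libraries lay beyond all 6 wild-type ones.

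The comparison and its gene lists were chosen with earlier results of these data known. Of 747 list entries 737 were matched by symbol or locus. Where a symbol is shared by unrelated genes, the gene of the list was set by its other name, and kinases related to CDPKs that share CRK symbols were left out of the receptor-like kinases. These corrections were made after values were seen. The genes named were the 8 with the largest difference per direction among called genes whose groups did not overlap and whose higher group had a mean of 100 or more. Also named were the mutated and OBERON genes and, in lists with at least 3 calls, the called members with the largest differences, up to 5 per list. Genes outside this rule, such as members that moved the other way or were not called, were chosen after their values were seen. Promoters are the 250 bases before the gene start in RefSeq's TAIR10.1, read by locus. For each element, the share of a list covers its tested members, and the share of all windows covers 32546 genes, tested or not. Alternatives were other pseudocounts (0.5 and 8), a minimum mean of 10 or none, quantile and median-ratio scaling, 6 libraries, no trend, a replicate block and each library left out. The main fit did not pair libraries by replicate number.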

Additional observations from a re-analysis of the deposited data

How the results depend on the processing

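Of 90 counts of the overall comparison under the alternatives, 89 stayed within 1.5 times the main value. The exception was the number of genes at least 2-fold higher in obe1-2, 558, which was 1465 under quantile normalisation, with 1843 in the other direction. Quantile normalisation also reversed the order of all calls, with 5993 higher in obe1-2 and 5646 higher in wrky-qm_15_hz. The median log2 difference of all genes was then 0.051, against -0.041 in the main fit. Median-ratio scaling called 11886 genes, 5680 higher in obe1-2 and 6206 higher in wrky-qm_15_hz. Leaving out 1 library at a time called 10705 to 11226 genes, 4559 to 4852 of them higher in obe1-2 and 6129 to 6374 higher in wrky-qm_15_hz. The replicate block called 11454, against 10995 in the same 6 libraries without it. Deviations of libraries with the same number correlated at 0.0126, -0.00766 and -0.0143, and those with different numbers at -0.0351 to 0.0425. Whether libraries with the same number shared a growth or a batch was not tested. OBE3 changed sign, to 0.0063 with median-ratio scaling and 0.012 without wrky-qm_15_hz replicate 2, with a range of -0.055 to 0.012 over the libraries left out, and was called in none of these. Of the medians of 39 lists, 21 moved by more than the spread between libraries under quantile normalisation, 5 with a pseudocount of 8, 5 with a minimum mean of 10, 2 with median-ratio scaling and 1 to 4 without 1 library. Under quantile normalisation the median of cell division was -0.50 (main -0.977), of shoot meristem -0.322 (-0.667), of flavonoids -0.548 (-0.975), of the stomatal lineage -0.652 (-1.06), of phosphate -0.686 (-0.935) of seed genes -2.82 (-3.63) and of triterpene clusters -0.738 (-1.45). Medians changed sign there for abscisic acid receptors (0.0321), nitrate (0.082) and tau-class transferases (0.265). With a minimum mean of 10 those of abscisic acid receptors (0.0166), CBF factors (0.0371) and the root hair and endodermis list (0.143, from -0.463) did so. Without 1 library, nitrate (0.0378), the clock (-0.0541) and jasmonate (as low as -0.0545) changed sign. Counts of list members that moved by over 1.5 times are given beside the lists. The causes were not tested.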
